A study of Homo sapiens with 32 samples.

Results

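The solute carrier (SLC) genes encode the membrane proteins that move amino acids, sugars, nucleotides, metal ions and vitamins across the cell's membranes. The genes described here are those with a symbol made of SLC, a family number, a letter and a member number, and with at least 200 counts summed over all 32 libraries of the series, so they were chosen by their measured total counts. They were 95 of the 364 SLC symbols among 32738 gene entries. Of the other SLC symbols, 89 had no count and 180 had fewer than 200. Just inside the limit stood SLC35E3 (202 counts), SLC41A2 (206), SLC35G1 (214), SLC38A6 (215) and SLC25A44 (218), and outside it SLC25A16 (190), SLC25A23 (187), SLC19A1 (186) and SLC25A14 (180). The limit was set on total counts, so a gene can have passed it through the times at which it was high: 12 of the 95 had fewer than 150 counts outside their highest time.

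The counts come from HEK293, a long-established line grown from human embryonic kidney, incubated for 0, 5, 15 or 30 min with 4-thiouracil, a sulphur-bearing uracil used to tag newly made RNA. Each time had 2 biological replicates, called cultures here, with 2 cDNA preparations of 2 libraries each, and the 4 libraries of a culture were summed. All 4 groups were the same line and are labelled as polyadenylated RNA, and no transfection is named. The sample titles all begin with TTSeq, but the labels state neither a treatment of the 0 min cells nor a purification of tagged RNA. Whether the later libraries hold tagged or total RNA is thus not settled. Rose and fell below mean a higher or lower level in these libraries than at the earlier time, not a change shown within cells. Where the labels call cultures biological replicates they do not say that they were grown separately, so the p-values measure the spread between these samples.

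Solute carriers sort into classes by the membrane they sit in. Carriers of the plasma membrane decide what enters and leaves the cell, and many of them use the sodium or proton gradient or trade one solute for another. The SLC25 family holds the carriers of the inner mitochondrial membrane, which pass nucleotides, phosphate, amino acids and cofactors between cytosol and matrix, and its proteins are imported into mitochondria with the help of small chaperones of the intermembrane space. By textbook location, 20 members belonged to SLC25, 36 to the plasma membrane and 28 to endoplasmic reticulum, Golgi, endosomes or lysosomes, and 11 were given no location. SLC25A17, a carrier of peroxisomes, and SLC25A46, a protein of the outer mitochondrial membrane, were kept with SLC25 by family.

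The 8 cultures held 776871 to 1396056 counts each. Levels are given as CPM, counts relative to the library total after TMM scaling between cultures, and fold changes as log2 values from the same scaling, which set a gene against the bulk of genes and are not amounts per cell. Over all 10439 genes tested the median log2 fold change against 0 min was 0.10 at 5 min, 0.19 at 15 min and 0.35 at 30 min. Scaled by total counts alone, these medians were 0.83, 0.96 and 1.22, so each change against 0 min is to be read relative to them. Each SE was obtained from the fold change and its F value, and adjusted p-values come from edgeR's quasi-likelihood test with Benjamini-Hochberg adjustment over all genes tested. Of the markers of HEK293, VIM had 2814 counts, NEFM 55, NES 24 and PAX2 5. Together they summed to 517.3 and 435.6 CPM at 0 min, 269.1 and 217.6 at 5 min, 262.5 and 261.2 at 15 min, and 297.3 and 226.8 at 30 min, and VIM fell by 1.00, 0.90 and 0.86 on the log2 scale at 5, 15 and 30 min. Of 10 markers of other cell types 7 had no count, and the 10 summed to 2.42 and 0 CPM at 0 min, 2.36 and 4.24 at 5 min, 6.46 and 5.47 at 15 min, and 9.01 and 14.8 at 30 min, mostly from APOA1. The part of either marker list in the results was not tested.

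The SLC25 carriers held more counts than the plasma membrane carriers at 0 min and fewer at each later time. Counts of the 20 SLC25 genes divided by counts of the 36 plasma membrane genes, a ratio within each culture that no scaling can move, were 1.46 and 1.65 at 0 min, 0.665 and 0.67 at 5 min, 0.603 and 0.675 at 15 min, and 0.627 and 0.586 at 30 min. Both 0 min cultures lay above all 6 later cultures, and the 15 min cultures overlapped those of 5 and of 30 min, while both 5 min cultures lay above both 30 min cultures. SLC25A5 alone gave 19.6% to 25.9% of the SLC25 counts in the later cultures and 45.6% and 49.8% at 0 min. Without SLC25A5 and SLC16A1, the most abundant gene of each class, the ratio was 0.935 and 1.01 at 0 min, 0.605 and 0.612 at 5 min, 0.524 and 0.546 at 15 min, and 0.532 and 0.501 at 30 min. The 0 min cultures again lay above all later ones, with a smaller gap.

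In CPM, the SLC25 genes summed to 4263 and 4595 at 0 min, 2234 and 2403 at 5 min, 2085 and 2251 at 15 min, and 2305 and 2215 at 30 min. The plasma membrane genes summed to 2929 and 2786 CPM at 0 min, 3359 and 3587 at 5 min, 3456 and 3336 at 15 min, and 3678 and 3782 at 30 min. The SLC25 sum was thus lower, and the plasma membrane sum higher, in every later culture than in either 0 min culture. As a share of all counts the 95 members took 0.631% and 0.597% at 0 min, 0.847% and 0.899% at 5 min, 0.888% and 0.823% at 15 min, and 0.948% and 0.975% at 30 min. These sums describe chosen genes and were not tested. In bulk RNA, fewer cells with a transcript and less of it per cell cannot be told apart.

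**Figure D1:**
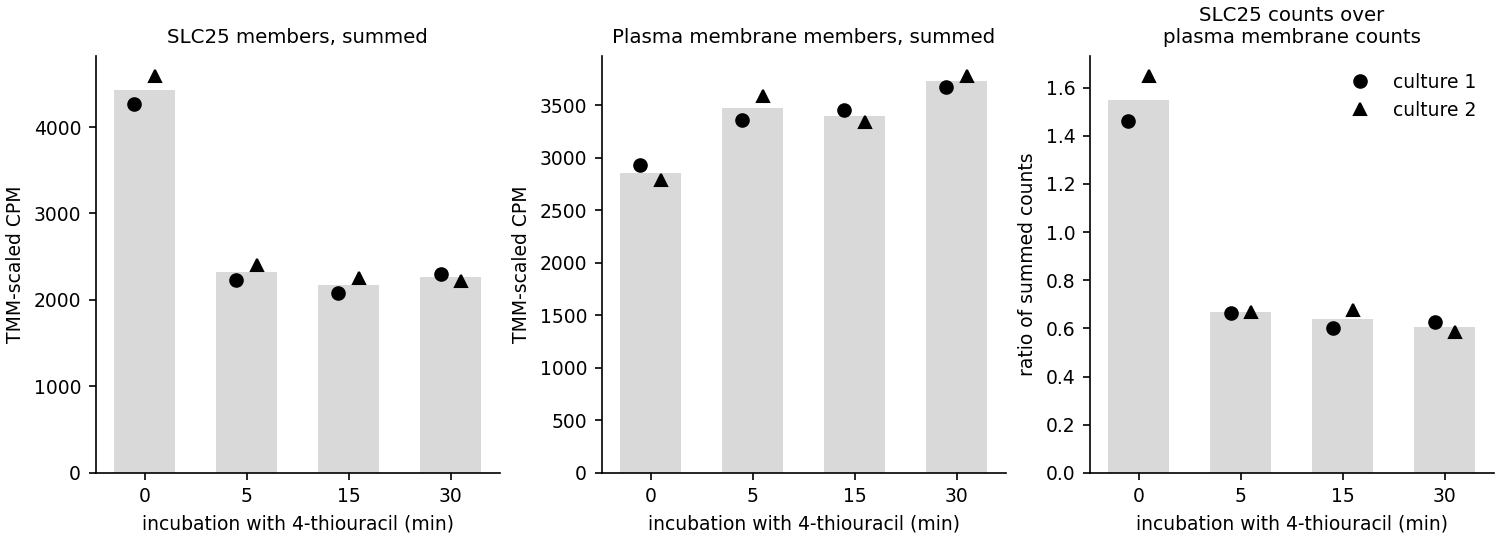
Summed level of the 20 SLC25 genes and of the 36 plasma membrane genes (TMM-scaled CPM, y axes from 0) and the ratio of their summed counts, by minutes of incubation; circles are culture 1, triangles culture 2, and bars the mean of both. The ratio lies between 0.586 and 0.675 in the 6 later cultures and at 1.46 and 1.65 at 0 min.

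Against 0 min, more members rose than fell at each later time. At 5 min 45 members rose and 17 fell, with 33 not called, while 28.7% of all genes tested were higher and 26% lower. At 15 min 41 rose and 25 fell, against 29.8% higher and 24.6% lower over all genes. At 30 min 42 rose and 20 fell, against 32.1% and 23.8%. The members' share of increases (47.4%, 43.2% and 44.2%) lay above that of all genes in each comparison. The 2 sets had unlike count limits. Members needed 200 counts in total, mostly from libraries of later times, while all genes tested included weaker ones such as NEFM with 55 counts. How far the limit moves the members' shares from those of all genes was not tested. Their share of decreases was 17.9% at 5 min, 26.3% at 15 min and 21.1% at 30 min, below that of all genes at 5 and 30 min and close to it at 15 min. With total counts only, 59 rose and 12 fell at 5 min, 58 and 12 at 15 min, and 63 and 9 at 30 min. The 3 comparisons share the same 2 cultures at 0 min and are not independent of each other.

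The classes split within these totals. For comparison, 28.7%, 29.8% and 32.1% of all genes tested were higher and 26%, 24.6% and 23.8% lower at 5, 15 and 30 min. Of the 20 SLC25 genes 7 rose and 7 fell at 5 min, 5 rose and 11 fell at 15 min, and 5 rose and 7 fell at 30 min, with median log2 fold changes of -0.44, -0.77 and -0.24, which turn to 0.29, 0.01 and 0.63 with total counts only. Of the 36 plasma membrane genes 17 rose and 5 fell at 5 min, 18 and 7 at 15 min, and 20 and 6 at 30 min, with medians of 0.46, 0.70 and 0.93 (1.19, 1.48 and 1.80 with total counts only). Under both of these scalings and with RLE size factors, the SLC25 median lay below the median of all genes and the plasma membrane median above it, at each of the 3 times. Of the 28 endomembrane carriers 12 rose and 5 fell at 5 min, 11 and 7 at 15 min, and 10 and 7 at 30 min, with medians of 0.26, 0.28 and 0.47. Their shares at 30 min, 35.7% higher and 25% lower, and their 25% lower at 15 min lay near those of all genes. The 11 carriers without a location had 9 increases at 5 min, 7 at 15 min and 7 at 30 min, no decrease, and medians of 1.48, 1.22 and 1.32. In annotated gene span, 10 of these 11 belonged to the longer members, split at the members' median of 45.2 kb. The count of SLC25 decreases at 15 min was 6 without culture 2 of 0 min, 6 without culture 2 of 15 min and 7 without culture 1 of 0 min.

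**Figure D2:**
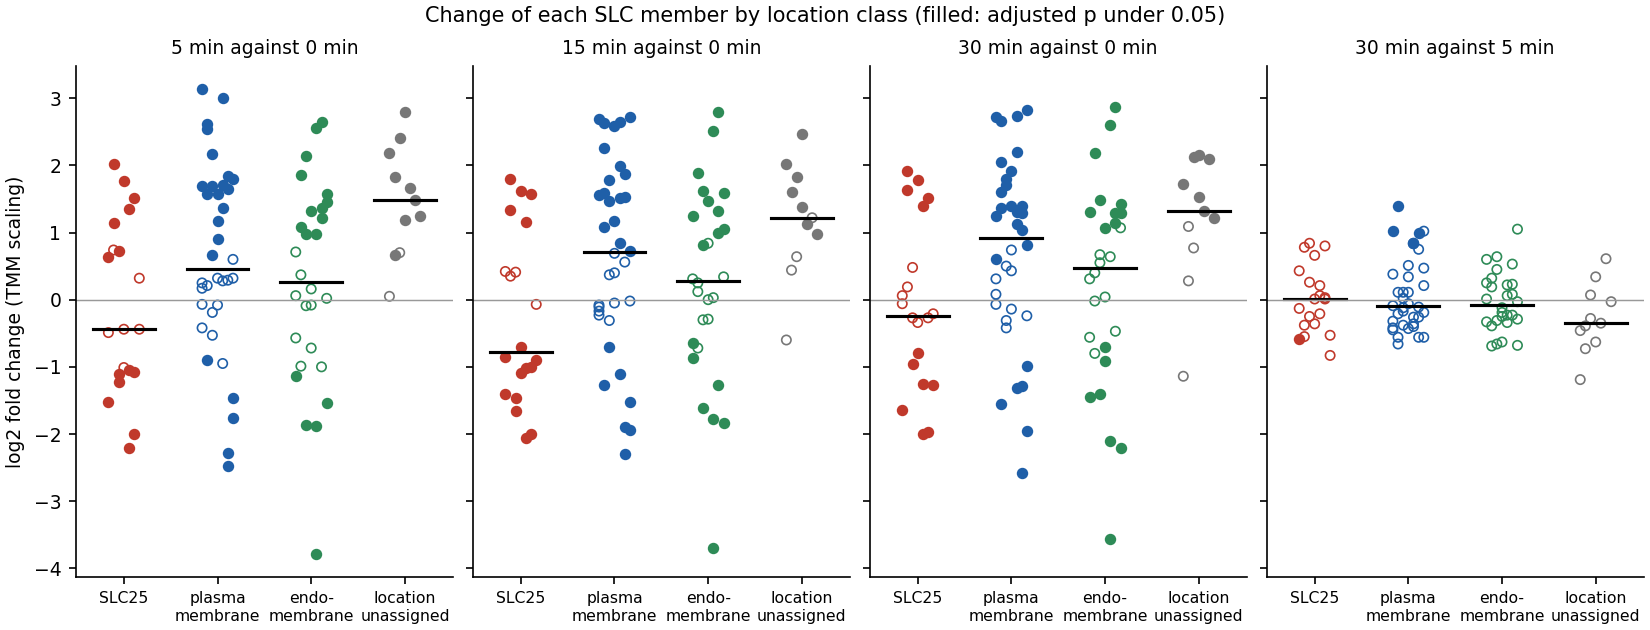
Log2 fold change of each of the 95 members (y axis, TMM scaling) by location class in the 4 comparisons; filled points have an adjusted p under 0.05, open points do not, and black lines are class medians. In the comparisons with 0 min the SLC25 medians lie at -0.44, -0.77 and -0.24 and the plasma membrane medians at 0.46, 0.70 and 0.93; between 30 and 5 min both lie near 0.

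The SLC25 decreases were led by the genes of adenine nucleotide and phosphate exchange, the carriers that supply the ATP synthase and export its product. SLC25A5, an ADP/ATP carrier and the most abundant member of all, had 1945 and 2289 CPM at 0 min, 442.6 and 471.9 at 5 min, 431.2 and 582.6 at 15 min, and 520.7 and 537.3 at 30 min. It stood several times higher in both 0 min cultures than in any later culture, and the later cultures lay close together. Its log2 fold change against 0 min was -2.21 at 5 min (SE 0.19, adjusted p = 1.53e-11), -2.06 at 15 min (SE 0.19, adjusted p = 7.29e-11) and -2.00 at 30 min (SE 0.19, adjusted p = 5.01e-11). SLC25A6, a second ADP/ATP carrier, had 760.2 and 807.8 CPM at 0 min, 188.8 and 201.4 at 5 min, 179.1 and 212.0 at 15 min, and 236.6 and 162.9 at 30 min. It fell in all 3 comparisons, by 2.00, 2.00 and 1.97 on the log2 scale. These genes have close copies elsewhere in the genome, and the handling of reads shared with such copies was not stated in the labels.

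SLC25A4, the ADP/ATP carrier known from heart and muscle, was a minor transcript in these cells. It had 48.3 and 43.2 CPM at 0 min, 29.5 and 35.3 at 5 min, 31 and 19.8 at 15 min, and 45.6 and 42.4 at 30 min. The cultures of 30 and 0 min overlapped, and only the comparison of 15 with 0 min was called, at -0.85 (SE 0.34, adjusted p = 0.0365). That call was lost on leaving out culture 2 of 15 min (-0.52, adjusted p = 0.318), culture 1 or 2 of 0 min (adjusted p = 0.155 and 0.0576) or of 30 min (adjusted p = 0.0596 and 0.0594), with DESeq2 (-0.95), with no filter on low counts (-0.76), with only these 2 times in the fit (-0.86) and with total counts only (-0.07). SLC25A3, the phosphate carrier, had 280.4 and 273.4 CPM at 0 min, 120.4 and 117.3 at 5 min, 89.2 and 86.2 at 15 min, and 154.3 and 129.7 at 30 min. It was lowest at 15 min, and no later culture reached the 0 min level. Its log2 fold changes were -1.22 at 5 min, -1.66 at 15 min and -0.96 at 30 min (SE 0.18 to 0.19, adjusted p = 1.77e-06, 7.76e-09 and 3.76e-05), the last not called with total counts only (-0.08).

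Other SLC25 genes moved in both directions. Here SLC25A12, SLC25A21, SLC25A28, SLC25A46 and SLC25A11 are named after their values were seen. SLC25A12, an aspartate and glutamate carrier of the malate-aspartate shuttle, had 61.6 and 54.1 CPM at 0 min, 214.8 and 254.3 at 5 min, 204.9 and 201.0 at 15 min, and 179.6 and 182.0 at 30 min. It rose in each comparison with 0 min, by 2.02, 1.80 and 1.63. SLC25A36, a pyrimidine nucleotide carrier, rose by 1.35, 1.15 and 1.40, with 210.6 to 281.6 CPM in the later cultures and 99.1 and 100.4 at 0 min. SLC25A21, a carrier of oxodicarboxylates, also rose at all 3 times (1.51, 1.57 and 1.52), as did SLC25A28, which brings iron into mitochondria (1.14, 1.33 and 1.92), and SLC25A46 (1.77, 1.62 and 1.78). From low counts, SLC25A28 lost its 5 and 15 min calls without culture 1 of 0 min (0.99 and 1.18), and with culture 2 of the later time left out (1.03 and 1.22), and the 5 min call also with DESeq2 (1.07) with only 2 times in the fit (1.14) and with 1 library per cDNA (1.01). SLC25A46 lost its 15 min call without culture 2 of 0 min (1.12, adjusted p = 0.0668). SLC25A11, the oxoglutarate and malate carrier, fell at all 3 times (-1.52, -1.40 and -1.64). SLC25A12 and SLC25A11 both serve the malate-aspartate shuttle and moved in opposite directions.

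**Figure D3:**
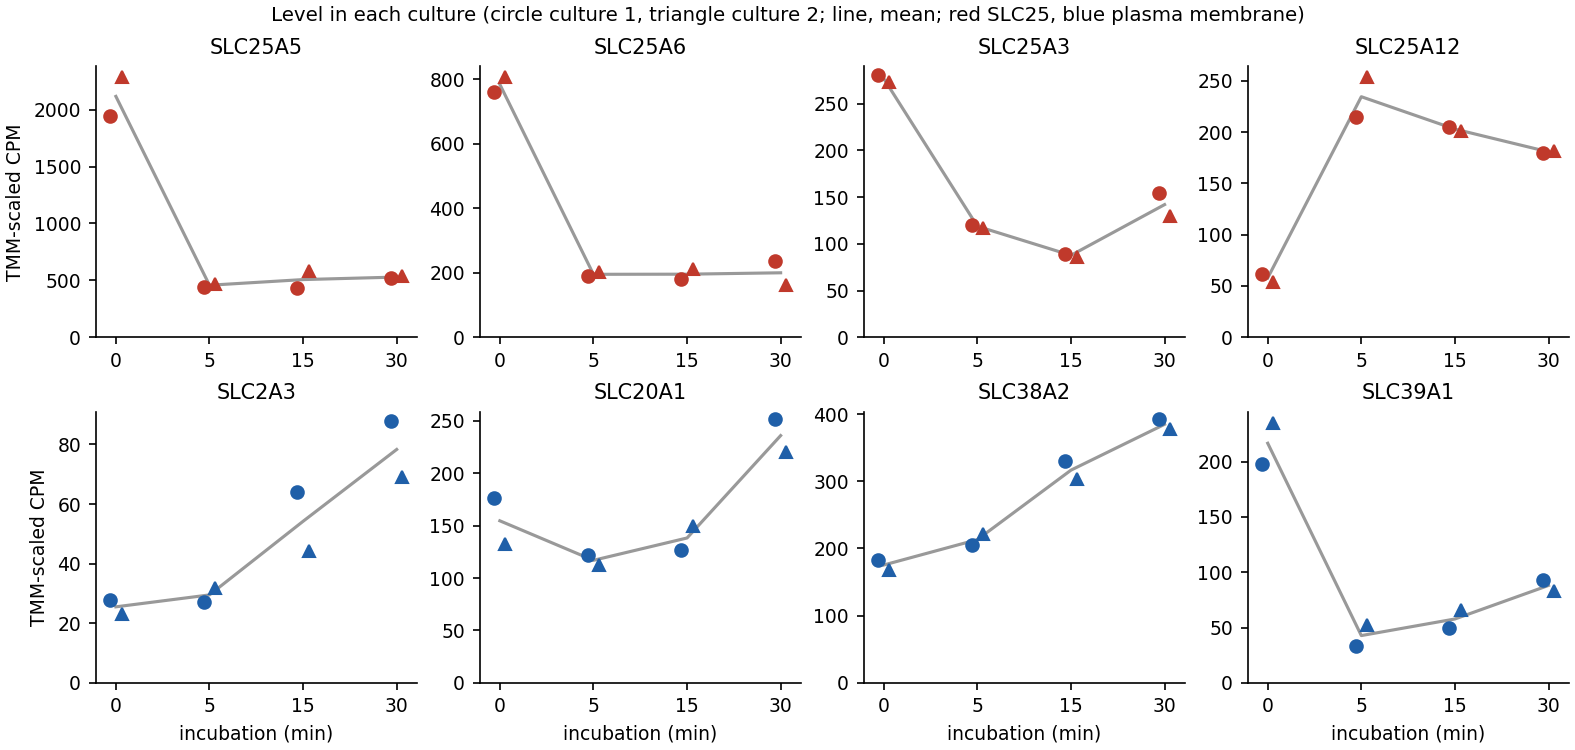
TMM-scaled CPM (y axes from 0, separate scales) of 4 SLC25 genes (red) and 4 plasma membrane genes (blue) by minutes of incubation; circles are culture 1, triangles culture 2, lines join the means. SLC25A5, SLC25A6, SLC25A3 and SLC39A1 are highest at 0 min, SLC25A12 is lowest there, and SLC2A3, SLC20A1 and SLC38A2 are highest at 30 min.

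Promoter sequences were taken from RefSeq (build GRCh38.p14), which held 80 of the 95 members among 27305 promoters, as the 250 bases before the annotated start. They are shown for pairs of carriers that moved in opposite directions or rose late, so that the letters at their starts can be set side by side. Both strands were searched for the TATA box TATAAA, the CAAT box CCAAT, the ETS factor motif CCGGAAG, the GC box GGGCGG, the E box CACGTG, the NRF1 motif GCATGCGC, the cyclic AMP element TGACGTCA and the CArG box, each counted separately where 2 overlapped. Capitals mark every match except GGGCGG, which is left in lower case. The SLC25 pair is SLC25A5 (chrX:119468194-119468443 on the plus strand), which fell, and SLC25A12 (chr2:171894245-171894494 on the minus strand), which rose:
SLC25A5: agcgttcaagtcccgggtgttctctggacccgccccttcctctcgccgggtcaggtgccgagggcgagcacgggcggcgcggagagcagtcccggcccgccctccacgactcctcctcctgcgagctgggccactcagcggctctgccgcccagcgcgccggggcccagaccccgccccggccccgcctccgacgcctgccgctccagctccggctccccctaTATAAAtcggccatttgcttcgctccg
SLC25A12: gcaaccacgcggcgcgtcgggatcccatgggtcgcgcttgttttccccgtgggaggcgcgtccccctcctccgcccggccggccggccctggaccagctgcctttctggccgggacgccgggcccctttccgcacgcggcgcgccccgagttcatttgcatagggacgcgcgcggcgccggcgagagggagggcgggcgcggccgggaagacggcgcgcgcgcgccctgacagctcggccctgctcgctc
SLC25A5 carries a TATAAA that begins 27 bases before its start, and SLC25A12 has none of the searched motifs other than GGGCGG. The TATA box stood in 11.1% of the SLC25 promoters, 4% of the plasma membrane promoters, 6.25% of all members' and 11.1% of all promoters in the table. CCGGAAG stood in 27.8% of the SLC25 promoters (18 matched), in 4% of the plasma membrane promoters (25 matched) and in 8.82% of all promoters. It was most frequent in the unassigned carriers, at 36.4% (11 matched), with 11.5% in endomembrane carriers and 16.2% in all members. GGGCGG stood in 61.1% of the SLC25, 92% of the plasma membrane and 42.3% of all promoters, CACGTG in 22.2%, 20% and 6.49%, and CCAAT in 50%, 40% and 33%. TGACGTCA stood in 5.56%, 4% and 1.77%, GCATGCGC in 0%, 4% and 2.81%, and the CArG box in 5.56%, 0% and 1.14%. Each 5.56% in SLC25 and each 4% in the plasma membrane class stands for 1 promoter. GGGCGG stood in 68.8% of all members', 61.5% of the endomembrane and 45.5% of the unassigned promoters. The 27305 promoters were not limited to genes with counts here, while members needed 200 counts, so the 2 sets are unlike. Motif shares among the genes tested were not counted, and no enrichment in carriers was tested. These are descriptions of letters, not of binding.

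Among the plasma membrane carriers the decreases included those of a nucleoside, a zinc, a vitamin and an amino acid carrier. SLC29A1, an equilibrative nucleoside transporter, had 183.7 and 157.5 CPM at 0 min, 33 and 29 at 5 min, 31.7 and 37.6 at 15 min, and 30.6 and 26.4 at 30 min. All 6 later cultures lay far below both 0 min cultures and near each other, with log2 fold changes of -2.47, -2.30 and -2.58 (SE 0.26 to 0.28, adjusted p = 2.38e-09, 4.44e-09 and 3.37e-10). SLC5A6, the sodium-dependent multivitamin transporter, fell by 1.76 at 5 min, 1.94 at 15 min and 1.95 at 30 min. SLC1A5, a glutamine exchanger, had 141.4 and 140.6 CPM at 0 min, 59 and 45.2 at 5 min, 54.9 and 43.1 at 15 min, and 88.3 and 54.1 at 30 min. It fell by 1.46, 1.52 and 0.98; the 30 min call was lost without culture 2 of 30 min (-0.65, adjusted p = 0.0819) and with total counts only (-0.11).

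The largest increases among plasma membrane carriers included those of an inositol, a cationic amino acid and a phosphate carrier. SLC2A13, which takes up myo-inositol with protons, had 18.1 and 21.6 CPM at 0 min, 167.6 and 178.7 at 5 min, 151.3 and 103.3 at 15 min, and 133.3 and 126.6 at 30 min. It rose by 3.13 at 5 min (SE 0.29, adjusted p = 5.39e-11), 2.69 at 15 min and 2.72 at 30 min. SLC7A2, a cationic amino acid carrier, had 23 and 43.2 CPM at 0 min, 231.3 and 283.3 at 5 min, 206.9 and 199.0 at 15 min, and 207.2 and 223.8 at 30 min. It rose by 3.00, 2.65 and 2.74. SLC20A2, a sodium-phosphate cotransporter, rose by 2.54, 2.26 and 2.66, with 90.9 to 131.6 CPM in the later cultures and 25.4 and 13.9 at 0 min. In each of these 3 genes both 0 min cultures lay below every later culture.

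Increases from very low 0 min levels rested on few counts. SLC2A11, a GLUT family sugar carrier, had 3.63 and 7.72 CPM at 0 min, 22.4 and 17 at 5 min, 39.4 and 33.5 at 15 min, and 33 and 45.5 at 30 min. It rose by 1.80, 2.72 and 2.82, the first lost without culture 1 of 0 min (1.33, adjusted p = 0.0975). SLC13A3, a sodium-dicarboxylate carrier, had 9.67 and 0 CPM at 0 min, 36.6 and 30.4 at 5 min, 34.3 and 32.8 at 15 min, and 23.4 and 21.5 at 30 min. Its log2 fold changes of 2.61, 2.63 and 2.05 depend on a 0 min culture without a count: without that culture the change at 30 min was 1.23 (adjusted p = 0.0662), and without the other no fold can be given.

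For the plasma membrane the pair shown is SLC29A1 (chr6:44219365-44219614 on the plus strand), which fell, and SLC2A13 (chr12:40106082-40106331 on the minus strand), which rose, with the same RefSeq build, window and capitals as above:
SLC29A1: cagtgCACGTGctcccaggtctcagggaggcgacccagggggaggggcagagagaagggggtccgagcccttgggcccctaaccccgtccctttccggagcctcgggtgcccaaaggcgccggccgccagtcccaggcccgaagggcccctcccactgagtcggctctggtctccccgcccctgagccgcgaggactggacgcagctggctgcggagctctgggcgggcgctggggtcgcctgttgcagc
SLC2A13: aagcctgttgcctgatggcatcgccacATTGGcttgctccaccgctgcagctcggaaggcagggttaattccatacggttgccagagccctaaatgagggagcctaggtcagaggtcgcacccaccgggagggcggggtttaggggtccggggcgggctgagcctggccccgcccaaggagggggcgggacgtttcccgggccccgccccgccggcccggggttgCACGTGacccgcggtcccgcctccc
Both windows hold CACGTG, 245 bases before the start in SLC29A1 and 25 bases before it in SLC2A13, and the second also holds CCAAT on the opposite strand, printed as ATTGG. The E box thus stood in a carrier that fell and in one that rose.

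Of the 15 members classed as amino acid carriers, 6 rose and 1 fell at 5 min. At 15 min 9 rose and 1 fell, and at 30 min 10 rose and 1 fell. Of all genes tested 28.7%, 29.8% and 32.1% rose and 26%, 24.6% and 23.8% fell at these times. The 15 had medians of 0.60, 0.85 and 1.13, beside 0.10, 0.19 and 0.35 for all genes. SLC6A15, a neutral amino acid carrier counted with the sodium-coupled carriers of neurotransmitters and osmolytes, is not among the 15 and was not called at any time (0.17, -0.11 and 0.08). SLC3A2, the heavy chain that brings several SLC7 light chains to the cell surface, had 55.6 and 61.8 CPM at 0 min, 87.3 and 127.2 at 5 min, 149.3 and 114.2 at 15 min, and 154.3 and 155.5 at 30 min. It rose by 0.90, 1.17 and 1.40, the 5 min call lost without culture 2 of 5 min (0.60, adjusted p = 0.119). Every later culture lay above both 0 min cultures.

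The 3 listed light chains that pair with SLC3A2 were each called at 1 or more times. SLC7A11, which exchanges cystine for glutamate, had 16.9 and 9.27 CPM at 0 min, 40.1 and 41 at 5 min, 102.8 and 58.8 at 15 min, and 57.1 and 45.5 at 30 min. It rose by 1.58, 2.58 and 1.92 and was highest at 15 min, where its 2 cultures also lay furthest apart. SLC7A5, the large neutral amino acid carrier, had log2 fold changes of 0.29, 0.56 and 1.04, of which only the 30 min value was called (SE 0.44, adjusted p = 0.0442). That call was lost without culture 1 of 0 min (0.83, adjusted p = 0.192), of 15 min (1.07, adjusted p = 0.0515) or of 30 min (0.81, adjusted p = 0.249), and with RLE size factors (0.87), DESeq2 (0.87), only these 2 times in the fit (0.89), the replicate block (1.03) and 1 library per cDNA (0.95). SLC7A6, a carrier of cationic and neutral amino acids, was called at 15 min (0.72, adjusted p = 0.03) and 30 min (0.81, adjusted p = 0.0132). Both of its calls were lost without culture 1 of 0 min (0.57 and 0.66, adjusted p = 0.171 and 0.105), with RLE size factors (0.62 and 0.64) and with DESeq2 (0.61 and 0.64). The call at 15 min was also lost without culture 1 of 15 min (adjusted p = 0.127), and the call at 30 min without culture 2 of 30 min (adjusted p = 0.0722) and with only 2 times in the fit (0.66).

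Of 3 plasma membrane carriers of glutamine, SLC1A5 fell, SLC38A2 rose at 15 and 30 min, and SLC38A1 was not called. Beside the decrease of SLC1A5, SLC38A2, a sodium-coupled neutral amino acid transporter, had 182.5 and 168.4 CPM at 0 min, 205.3 and 221.1 at 5 min, 330.3 and 302.9 at 15 min, and 392.2 and 377.5 at 30 min. Its cultures did not overlap between any 2 times, and its log2 fold changes against 0 min were 0.28 (not called), 0.85 and 1.13 (SE 0.18 to 0.19, adjusted p = 0.207, 0.000159 and 2.05e-06). SLC38A1, a close relative, had 186.5 to 231.4 CPM in the later cultures and 198.2 and 128.2 at 0 min, with log2 fold changes of 0.32, 0.40 and 0.43 (adjusted p = 0.193, 0.095 and 0.0667). It was called at all 3 times without culture 1 of 0 min (0.71, 0.79 and 0.82, adjusted p = 0.0197, 0.00896 and 0.00643) and with total counts only (1.05, 1.17 and 1.30). At 30 min it was also called with the replicate block (0.45, adjusted p = 0.0498), with no filter on low counts (0.54, adjusted p = 0.0269) and without culture 2 of 15 min (0.50, adjusted p = 0.0348). SLC38A7, a glutamine carrier of lysosomes named after its values were seen, rose by 1.25 at 15 min and 1.31 at 30 min and was not called at 5 min (0.71). Both calls were lost without culture 2 of 0 min (0.81 and 0.87, adjusted p = 0.116 and 0.0862), and each without culture 2 of its own later time. SLC1A3, a glutamate carrier, was among the 3 most abundant plasma membrane members and rose by 1.65, 1.87 and 1.40.

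The listed sugar and monocarboxylate carriers that feed glycolysis and carry away its products differed widely in their counts. SLC2A1 had 165 counts and SLC16A3 had 3, both below the limit. SLC2A3, a high-affinity glucose carrier, had 27.8 and 23.2 CPM at 0 min, 27.1 and 31.8 at 5 min, 64 and 44.4 at 15 min, and 87.7 and 68.9 at 30 min. Its log2 fold changes against 0 min were 0.21 (not called), 1.08 and 1.60, the 15 min call lost without culture 1 of 15 min (0.82, adjusted p = 0.104). SLC16A1, the lactate and pyruvate carrier and the most abundant plasma membrane member, had 448.4 and 497.4 CPM at 0 min, 395.3 and 431.7 at 5 min, 299.3 and 283.1 at 15 min, and 326.7 and 435.2 at 30 min. Its log2 fold changes were -0.19, -0.70 and -0.31, of which only the 15 min value was called (adjusted p = 0.0014), and all 3 turned positive with total counts only (0.55, 0.08 and 0.57); the 30 min value was called as a decrease with RLE size factors (-0.48), with DESeq2 (-0.48) and with only these 2 times in the fit (-0.46).

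The zinc carriers belong to 2 families that mostly work in opposing directions. The SLC30 family mostly moves zinc out of the cytosol. Of its 4 members here, 4 rose at 5 min, 2 at 15 min and 2 at 30 min, and none fell. SLC30A9 among them was given no location. Of the 7 SLC39 genes, which bring zinc into the cytosol, 3 rose and 2 fell at 5 min, and 2 rose and 2 fell at 15 and at 30 min. Of all genes 28.7%, 29.8% and 32.1% rose and 26%, 24.6% and 23.8% fell at 5, 15 and 30 min, and the SLC39 shares of 28.6% in each direction at 15 and 30 min lay near these. A difference between the families was not tested. In annotated gene span the SLC30 genes ranged from 37.4 to 100 kb. SLC39A1 and SLC39A4, which fell, span 9.09 and 7.15 kb, and SLC39A9 and SLC39A11, which rose at all 3 times, 64.4 and 446.8 kb. SLC39A10 and SLC39A14, called at no time, span 161.7 and 66.9 kb, and SLC39A6, called at 5 min, 20.9 kb. SLC30A6, of the Golgi, had 93.7 to 133.2 CPM in the later cultures and 43.5 and 47.9 at 0 min, and rose by 1.21, 1.32 and 1.29. SLC30A7, also of the Golgi, rose by 1.46, 1.05 and 1.43, but its 0 min cultures were far apart, at 49.6 and 12.4 CPM. Without the lower one the changes were 0.88, 0.47 and 0.85, the 15 min value not called (adjusted p = 0.24), and without the higher one 2.87, 2.47 and 2.84.

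SLC30A5 and SLC30A9 were called only at 5 min, at 0.98 and 0.67 (adjusted p = 0.0369 and 0.0306). SLC30A5 lost the call without culture 2 of 5 min (0.62) or without either 0 min culture (0.97 and 1.04), and SLC30A9 lost it without culture 2 of 0 min (0.55) or without either 5 min culture (0.70 and 0.70). Both also lost it with RLE size factors (0.91 and 0.61), DESeq2 (0.90 and 0.61), 1 library per cDNA (0.96 and 0.50) and only 2 times in the fit (0.98 and 0.68), and SLC30A5 with no filter on low counts (1.01). Among the importers, SLC39A1 fell by 2.29, 1.90 and 1.29 (the last not called with total counts only, at -0.41), and SLC39A4, known from the intestine, fell by 0.90, 1.27 and 1.56. The 5 min call of SLC39A4 was lost without culture 2 of 0 min (-0.62) or of 5 min (-0.68), and its 5 and 15 min calls with total counts only (-0.16 and -0.49). SLC39A9 (1.32, 1.47 and 1.07) and SLC39A11 (2.14, 1.62 and 1.48), both of the Golgi, rose at all 3 times. SLC39A6 was called at 5 min (0.67), a call lost without culture 1 of 0 min (0.65, adjusted p = 0.0597), without culture 2 of 5 min (0.63, adjusted p = 0.075) and with DESeq2 (0.60). SLC39A10 and SLC39A14 were called at no time, with values of 0.32, -0.02 and -0.24 and of -0.07, -0.08 and 0.31; the 15 min value of SLC39A10 was 0.76 with total counts only.

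Among carriers of internal membranes the decrease of SLC50A1, a sugar transporter of the Golgi, had the lowest log2 fold change of the 95 members at each later time against 0 min. It passed the limit of 200 counts through its 0 min counts, with 97 of its 311 counts at the later times. It had 158.3 and 128.2 CPM at 0 min, 5.9 and 13.4 at 5 min, 10.3 and 11.6 at 15 min, and 18 and 6.15 at 30 min. Every later culture lay far below both 0 min cultures, with log2 fold changes of -3.78, -3.70 and -3.56 (SE 0.37 to 0.40, adjusted p = 1.09e-09, 7.77e-10 and 6.1e-10). SLC35B1, an ATP/ADP exchanger of the endoplasmic reticulum, fell by 1.88, 1.77 and 2.11, with 102.7 to 158.0 CPM in the later cultures and 449.6 and 529.8 at 0 min. SLC37A4, the glucose-6-phosphate carrier of the endoplasmic reticulum, fell by 1.54, 1.83 and 2.21.

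Increases in the internal membranes included SLC36A4, a lysosomal amino acid carrier, with 96.4 to 151.9 CPM in the later cultures and 18.1 and 26.3 at 0 min. It rose by 2.55, 2.51 and 2.60. SLC9A7, a sodium-proton exchanger of the trans-Golgi, had 21.2 to 45.2 CPM in the later cultures and 4.83 and 6.18 at 0 min, and rose by 2.65, 2.79 and 2.87. SLC37A3 rose by 1.37, 0.99 and 1.14. Of the carriers without a location, SLC9B2, a sodium-proton exchanger, rose by 2.79, 2.46 and 2.16, and SLC10A7 by 2.18, 2.02 and 1.72. All 4 members of the cation and proton exchanger class, SLC8A1, SLC9A7, SLC9A8 and SLC9B2, rose at each later time. Among all genes tested, increases made up 28.7%, 29.8% and 32.1%, from the earliest to the latest comparison. These exchangers have long annotated gene spans (513.8, 159.9, 79.5 and 66 kb), above the members' median of 45.2 kb. Of the 48 longer members 35, 29 and 28 rose in the same comparisons. A difference between exchangers and other longer members was not tested. The 30 min call of SLC9A8 was lost without culture 1 of 0 min (1.01, adjusted p = 0.081), without culture 2 of 30 min (0.99, adjusted p = 0.0938) and with DESeq2 (1.12, adjusted p = 0.0502). SLC8A1 and SLC9A8 are named after their values were seen.

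Between 30 and 5 min few members passed the test: 5 members were higher and 1 lower at 30 than at 5 min, while 5.88% of all genes tested were higher and 6.52% lower. All 5 were plasma membrane carriers, the median log2 fold change of the 36 was -0.10, and that of the 20 SLC25 genes was 0.01, beside -0.03 for all genes. The count of higher members was 3 without culture 1 of 5 min and 2 without culture 1 of 30 min, and that of lower members 0 or 2 on leaving out any culture but culture 1 of 15 min. SLC2A3 had 87.7 and 68.9 CPM at 30 min and 27.1 and 31.8 CPM at 5 min, and was 1.39 higher (SE 0.29, adjusted p = 0.00147). That call was lost without culture 1 of 30 min (1.21, adjusted p = 0.0509). SLC38A2 had 392.2 and 377.5 CPM at 30 min against 205.3 and 221.1 CPM at 5 min, and was 0.85 higher (SE 0.17, adjusted p = 0.000885). SLC2A3 shares most of its coding sequence with another glucose carrier gene, SLC2A14, and reads of such copies cannot be assigned with certainty.

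The phosphate carrier SLC20A1 was called both against 5 min and against 0 min. It had 176.5 and 132.8 CPM at 0 min, 121.6 and 112.3 at 5 min, 126.7 and 149.8 at 15 min, and 251.6 and 220.1 at 30 min. The 5 min cultures lay below both 0 min cultures and the 30 min cultures above all others. At 30 min it was 1.02 higher than at 5 min (SE 0.19, adjusted p = 0.000448) and 0.60 higher than at 0 min (adjusted p = 0.00924). The second call was lost without culture 2 of 0 min (0.44, adjusted p = 0.106), without culture 1 of 30 min (0.53, adjusted p = 0.0818), with RLE size factors (0.43), with DESeq2 (0.43) and with only these 2 times in the fit (0.45). Its values at 5 and 15 min against 0 min, -0.42 and -0.17, were not called, the first was called as a decrease with RLE size factors (-0.49) and with 1 library per cDNA (-0.68), and the second was 0.60 with total counts only.

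The other late differences were smaller or less stable. SLC39A1, the zinc importer that fell against 0 min, had 93.1 and 83 CPM at 30 min against 33 and 52.3 CPM at 5 min. It was 1.00 higher (SE 0.25, adjusted p = 0.00682), a call lost without culture 1 of 5 min (0.74, adjusted p = 0.117) or of 30 min (0.92, adjusted p = 0.0818). SLC19A2, a thiamine carrier, had 102.7 and 99.6 CPM at 30 min and 56.6 and 56.5 CPM at 5 min, and was 0.84 higher (adjusted p = 0.0422). That call was lost on leaving out any of these 4 cultures (0.82 to 0.86, adjusted p = 0.123 to 0.208), with RLE size factors (0.73), with DESeq2 (0.73) and with the replicate block (0.82). Against 0 min SLC19A2 rose by 1.36, 1.51 and 2.20, values that rest on 0 min cultures at 32.6 and 9.27 CPM: without the lower they were 0.82 (adjusted p = 0.0603), 0.97 and 1.65, and without the higher 2.62, 2.78 and 3.46. SLC25A26, the S-adenosylmethionine carrier of mitochondria, had 143.5 and 130.3 CPM at 30 min and 203.0 and 206.3 CPM at 5 min, and was 0.58 lower (-0.58, adjusted p = 0.0302). Its call was lost without any 1 of the 5 and 30 min cultures (-0.65 to -0.51, adjusted p = 0.102 to 0.249), without culture 2 of 15 min (-0.52, adjusted p = 0.0703), with no filter on low counts (-0.51) and with total counts only (-0.44).

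The 2 late phosphate and amino acid carriers are shown for their starts, SLC20A1 (chr2:112645689-112645938 on the plus strand) and SLC38A2 (chr12:46372774-46373023 on the minus strand), with the same RefSeq build, window and capitals:
SLC20A1: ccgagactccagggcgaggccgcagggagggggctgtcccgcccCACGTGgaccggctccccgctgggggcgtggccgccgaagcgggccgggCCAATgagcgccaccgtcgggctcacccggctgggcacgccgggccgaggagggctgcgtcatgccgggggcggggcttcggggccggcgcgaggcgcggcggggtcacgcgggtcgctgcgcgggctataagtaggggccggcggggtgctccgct
SLC38A2: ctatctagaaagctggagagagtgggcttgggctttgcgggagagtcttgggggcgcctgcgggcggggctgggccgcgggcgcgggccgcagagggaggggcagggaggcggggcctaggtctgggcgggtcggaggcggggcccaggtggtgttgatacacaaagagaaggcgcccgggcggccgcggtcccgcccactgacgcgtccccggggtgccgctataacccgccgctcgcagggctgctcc
SLC20A1 holds CACGTG 206 bases and CCAAT 157 bases before its start. SLC38A2 holds 4 copies of GGGCGG and no other searched motif, so the 2 late risers share only the GC box among the motifs searched.

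The length of the gene moved with the change. Annotated gene spans, from the first to the last base of the gene in GENCODE v29 and used as lengths only, had a median of 17.7 kb for SLC25, 49.6 kb for plasma membrane, 35.4 kb for endomembrane and 100 kb for unassigned carriers. Across the 95 members Spearman's rho between span and log2 fold change was 0.75 at 5 min, 0.69 at 15 min and 0.58 at 30 min against 0 min, and -0.47 for 30 against 5 min. Across all 9352 genes tested that had a span it was 0.56, 0.50, 0.42 and -0.28. These points are genes that share the same libraries and are no independent replicates. Within SLC25 alone rho was 0.70, 0.70, 0.65 and -0.40, and within the plasma membrane class 0.74, 0.61, 0.49 and -0.53. SLC50A1, SLC25A5 and SLC25A11 were among the shortest genes, at 3.51, 2.92 and 3.12 kb, while SLC25A12, SLC25A21 and SLC2A13 spanned 215.5, 494.4 and 351.1 kb.

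**Figure D4:**
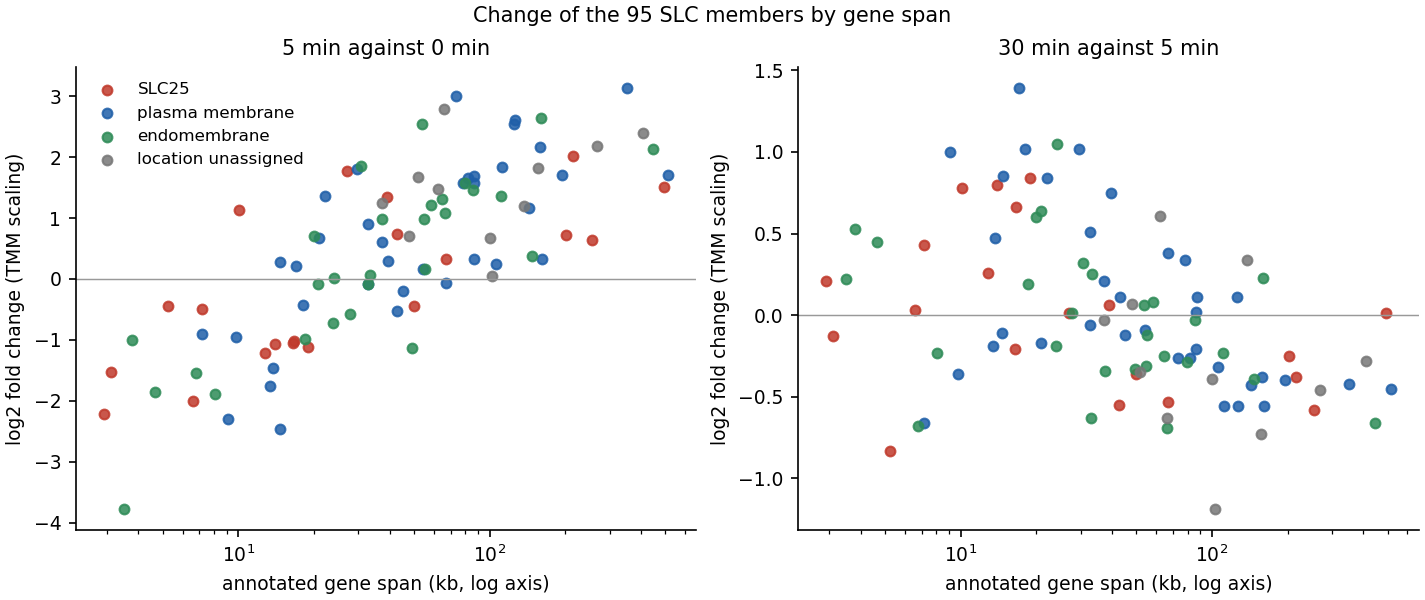
Log2 fold change of the 95 members (y axes, TMM scaling) against annotated gene span in kb (log axis), for 5 against 0 min and for 30 against 5 min, coloured by location class. At 5 min the change is more positive in members of longer span (rho 0.75), and between 30 and 5 min more negative (rho -0.47).

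Split at the median span of 45.2 kb, the longer members had few decreases. Of the 48 longer members 35 rose and 1 fell at 5 min, 29 and 3 at 15 min, and 28 and 2 at 30 min. Of the 47 shorter members 10 rose and 16 fell at 5 min, 12 and 22 at 15 min, and 14 and 18 at 30 min. Over all genes tested, of any span, 28.7%, 29.8% and 32.1% rose and 26%, 24.6% and 23.8% fell. The shorter members' increases at 15 and 30 min (25.5% and 29.8%) lay near these shares. Calls among all longer or all shorter genes were not counted, so the split is not shown to be particular to carriers. All 5 members that were higher at 30 than at 5 min were shorter ones. These 5 were 5.26% of the members, near the 5.88% of all genes tested that were higher. Among shorter members the 14 SLC25 genes had median log2 fold changes of -1.03, -1.01 and -0.31 at 5, 15 and 30 min, and the 17 plasma membrane genes -0.08, -0.05 and 0.50. Among longer members the 6 SLC25 genes had medians of 0.68, 0.41 and 0.27 and the 19 plasma membrane genes 1.65, 1.56 and 1.30. The SLC25 median lay below the plasma membrane median in both span groups at all 3 times. This split does not match the classes in span: the shortest SLC25 gene spanned 2.92 kb and the shortest plasma membrane gene 7.15 kb. A difference between the classes at equal span was not tested.

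Genes that work with the carriers were counted on 3 lists of their own, and those named from them were chosen after their values were seen. Among all genes 28.7%, 29.8% and 32.1% rose and 26%, 24.6% and 23.8% fell at 5, 15 and 30 min, with medians of 0.10, 0.19 and 0.35. Of 11 tested genes for the import of mitochondrial carriers, 1 rose and 8 fell at each of the 3 later times, with medians of -1.14, -1.11 and -1.50, and 2 were lower at 30 than at 5 min. The increase was that of TOMM70A, a receptor of the outer membrane that takes up SLC25 proteins (1.97, 1.36 and 1.33), while TOMM22 (-2.65, -2.67 and -2.33) and the small chaperones TIMM9 (-1.68, -1.89 and -2.27) and TIMM10 (-1.80, -1.78 and -2.16) fell. Of 11 tested genes for other transport proteins of mitochondria, 2 rose and 7 fell at each later time, with medians of -1.54, -1.64 and -2.01. The increases were SFXN1, a serine carrier, and SFXN5, and the decreases included the outer membrane channels VDAC1 (-2.65, -2.49 and -2.91) and VDAC2 (-2.13, -1.95 and -2.01) and MPC1 of the mitochondrial pyruvate carrier (-2.35, -2.28 and -3.30). Of 10 tested partners and regulators of plasma membrane transport, 5 rose and 1 fell at 5 and 15 min, and 4 rose and 1 fell at 30 min, with medians of 0.88, 0.58 and 0.86; the 4 that rose at 30 min are near the share of all genes. BSG, the chaperone that brings SLC16A1 to the surface, fell (-1.38, -1.34 and -1.70), and NEDD4L, a ubiquitin ligase that removes transporters from it, rose (2.78, 2.13 and 2.07).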

How the data were processed

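RNA of HEK293 cells was counted in 32 libraries from 8 cultures. The authors deposited whole-number counts per gene symbol, and the submitters' processing notes name STAR and the build hg19. The aligner's version, the annotation, the strand used, the handling of reads with several matches and the use of molecular identifiers are not given in the sources used here. Barcodes tied each column to its sample. The tagmentation number differed between header and label in 4 libraries, which moves no sum.

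The 4 libraries of a culture were summed, which gave 776871 to 1396056 counts per culture (188686 to 381471 per library). Counts that low leave the weaker members imprecise. Times were compared with edgeR 4.0.16 in R 4.3.3: TMM scaling, filterByExpr (10439 genes kept, all 95 members among them), 1 quasi-likelihood fit of the 4 times to the 8 cultures (residual degrees of freedom 4), two-sided tests and Benjamini-Hochberg adjustment at 0.05. The biological coefficient of variation was 15.3%. The script was tested on simulated counts.

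Members, classes and lists were chosen with earlier results of these data known. Named are, per comparison, the 5 largest called increases and 5 largest called decreases with a mean of at least 10 CPM and no overlap between cultures, the 3 most abundant members of each class, listed carriers of ADP/ATP, phosphate, glucose, monocarboxylates, glutamine and zinc, SLC3A2 with its light chains, and the members nearest the count limit. Other members named were chosen after their values were seen, and a few genes that the rule or the counts include are not reported here. Classes were assigned from textbook knowledge. Gene spans come from GENCODE v29, of another build than the counts, and promoters from RefSeq. Alternatives were RLE or total-count scaling, no count filter, DESeq2 1.42.0, a replicate block, 1 library per cDNA, 2 times per fit, each culture left out, and limits of 100 or 500 counts.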

Additional observations from a re-analysis of the deposited data

How the results depend on the processing

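Most counts of calls kept within 1.5 times of the reported value (397 values under the alternatives, while 51 moved further), and of 196 results for single named genes 6 changed sign between values of which at least 1 was called, all with total counts only. Those were SLC16A1 at 5, 15 and 30 min (0.55, 0.08 and 0.57), SLC20A1 at 15 min (0.60), SLC25A4 at 30 min (0.81) and SLC39A10 at 15 min (0.76), each against 0 min. Values called under neither setting also changed sign, such as SLC38A6 at 30 min without culture 2 of 0 min (0.17, against -1.14) and SLC25A44 at 30 min without culture 1 of 0 min (0.22, against -0.27). With total counts only the median of all genes lies higher, so fewer decreases follow by construction.

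With total counts only, decreases against 0 min were 4 in SLC25 at 5 min; 12 in all members, 4 in SLC25 and 4 in the plasma membrane class at 15 min; and 9, 3 and 3 at 30 min. SLC25 increases were 8 at 15 min and 9 at 30 min. Between 30 and 5 min 0 members fell, 0 of them SLC25. With RLE size factors 8 plasma membrane members fell at 5 min, and 3 members, 2 of them SLC25, were lower at 30 than at 5 min. With no filter on low counts 0 members and 0 SLC25 genes were lower at 30 than at 5 min. With only 2 times in the fit 8 members were higher at 30 than at 5 min, and with 1 library per cDNA 1 SLC25 gene was. Apart from the limits below, the cause of these moves was not tested.

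A limit of 500 counts leaves fewer members: 27, 26 and 27 rose at 5, 15 and 30 min, 15 fell at 15 min, and in SLC25 3 rose and 6 fell at 15 min and 3 rose at 30 min. A limit of 100 counts adds members: 8 SLC25 genes rose at 15 min and 9 at 30 min. The ratio of SLC25 to plasma membrane counts without the most abundant gene of each class was 0.971, 0.608, 0.535 and 0.517 at 0, 5, 15 and 30 min (means of 2 cultures). With no gene left out, the mean ratio at 5 min was 0.668. That full ratio was 0.682 with 1 library per cDNA and 0.681 with a limit of 100 counts. Counting only members with at least 150 counts outside their highest time, a choice made after seeing the data, 43 rose and 14 fell at 5 min, 40 and 20 at 15 min, 40 and 19 at 30 min, and 5 and 1 differed between 30 and 5 min.

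Leaving out each culture in turn, where a lone culture is assumed to vary like the other times, gave 6 to 11 SLC25 decreases at 15 min, 2 to 6 members higher and 0 to 2 lower at 30 than at 5 min, 2 to 6 plasma membrane members higher, and 0 to 1 SLC25 genes lower.

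Deviations of cultures with the same replicate number correlated little between times (r between -0.0324 and 0.0809 over 6 pairs of times). Scatter from low counts weakens such a correlation, so these values cannot decide whether the replicate numbers pair the samples. With the replicate block 43 members rose and 18 fell at 5 min, 41 and 25 at 15 min, 42 and 19 at 30 min, and 4 and 1 differed between 30 and 5 min. Genes with few counts at 0 min are limited by depth, and a gene that passed no test may have changed.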
